A study of Mus musculus with 7 samples.

Results

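ATAC-seq sites were examined around Fgf5, Otx2, Pou3f1 (which encodes Oct6) and Foxd3, 4 genes that mark the primed epiblast. A site was taken where its midpoint lay within 100 kb of a transcriptional start site (TSS) of a curated RefSeq transcript of one of these genes, which gave 56 of the 75880 sites in the deposited table. There were 20 sites at Fgf5, 8 at Otx2, 16 at Pou3f1 and 12 at Foxd3, and no site was shared between genes. ATAC-seq uses the Tn5 transposase, which inserts sequencing adapters where DNA is accessible, so that reads accumulate at promoters and enhancers.

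The cells were epiblast-like cells (EpiLCs) on day 2, made from XY mouse ESCs kept naive with PD0325091, CHIR99021 and LIF and then grown for 48 h on fibronectin in N2B27 with 20 ng/ml activin A, 12 ng/ml Fgf2 and 1% KSR. Wild-type (WT) cells were of the CCE line, and Smad2/3 double-knockout (DKO) cells were of clone KT15.1F6. This clone is homozygous for the targeted allele Smad2tm1Rob and for a deletion of exon 1 of Smad3 made with Cas9 nickase. WT and DKO cells were of the same mouse strain. Each genotype had 3 independent differentiations of 1 clone, all in the same medium, so genotype and clone cannot be told apart. A further library, of 100 ng of WT genomic DNA treated with Tn5, served the authors as a control for site calling. The table lists only the mean of each genotype at a site. Library depth and the spread between the differentiations are therefore unknown, and no difference below was tested. The mean is given as a log2 concentration, that is, the log2 of the normalized reads at the site.

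In the embryo, Nodal acts through Smad2 and Smad3 in the epiblast while its cells leave naive pluripotency and become competent to form the germ layers. Activin A, which engages the same receptors, stands in for Nodal in EpiLC cultures. Otx2 is a homeodomain transcription factor, Oct6 a POU factor and Foxd3 a forkhead factor, and all are active in the post-implantation epiblast. Fgf5, a secreted growth factor, is the classical transcript of the post-implantation epiblast, and its locus is known for a group of enhancers that gain activity on priming.

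A site was called lower or higher in DKO where the log2 concentration in DKO minus that in WT was past 0.585 in either direction, that is, 1.5-fold. Of the 56 sites, 17 (30.4%) were lower and 3 (5.36%) were higher. Among all listed sites 16.0% were lower and 8.51% higher by the same rule. The median log2 difference was -0.27 over the 56 sites and -0.08 over all listed sites. The lower sites were spread unevenly, with 8 at Fgf5, 6 at Pou3f1, 2 at Foxd3 and 1 at Otx2. The higher sites were 2 at Foxd3 and 1 at Pou3f1. Since ATAC-seq averages over many cells, a site open in fewer cells and a site less open in each cell cannot be told apart.

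**Figure D1:**
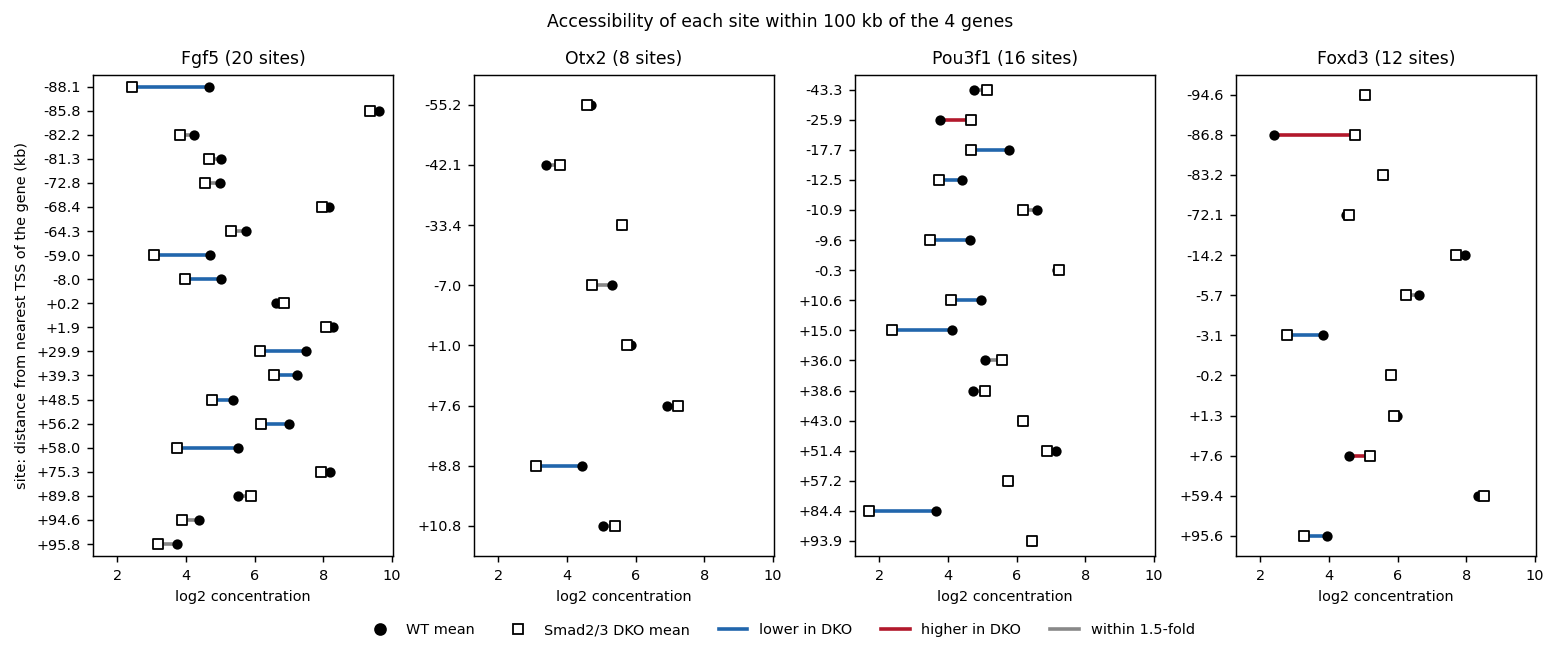
Log2 concentration (horizontal axis) of every site within 100 kb of the 4 genes, in WT (black circles) and Smad2/3 DKO EpiLCs (open squares), each the authors' mean, with sites ordered by signed distance in kb from the nearest TSS of the gene. Lines join the 2 means and are blue for the 17 sites lower in DKO, red for the 3 higher and grey for the rest, and most blue lines are at Fgf5 and Pou3f1.

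Weak sites passed the fold far more often than strong ones, in the whole table as well as here. Among all listed sites with a mean concentration under 4, 29.8% were lower and 20.5% higher, whereas at a concentration of at least 7 the shares were 2.4% and 0.691%. Of the 8 sites near the 4 genes with a concentration under 4, 6 were lower. Of the 48 sites at or above 4, 11 (22.9%) were lower and 3 (6.25%) higher, against 12.4% and 5.4% of all listed sites of that level. All 11 of these lower sites were at Fgf5 (7) or Pou3f1 (4), and 0 were at Otx2 or Foxd3. At a concentration of 7 or more, none of the 9 sites passed the fold, while 3 of the 8 between 6 and 7 did, all lower and all at Fgf5, where 8.01% of all listed sites in that range were lower.

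**Figure D2:**
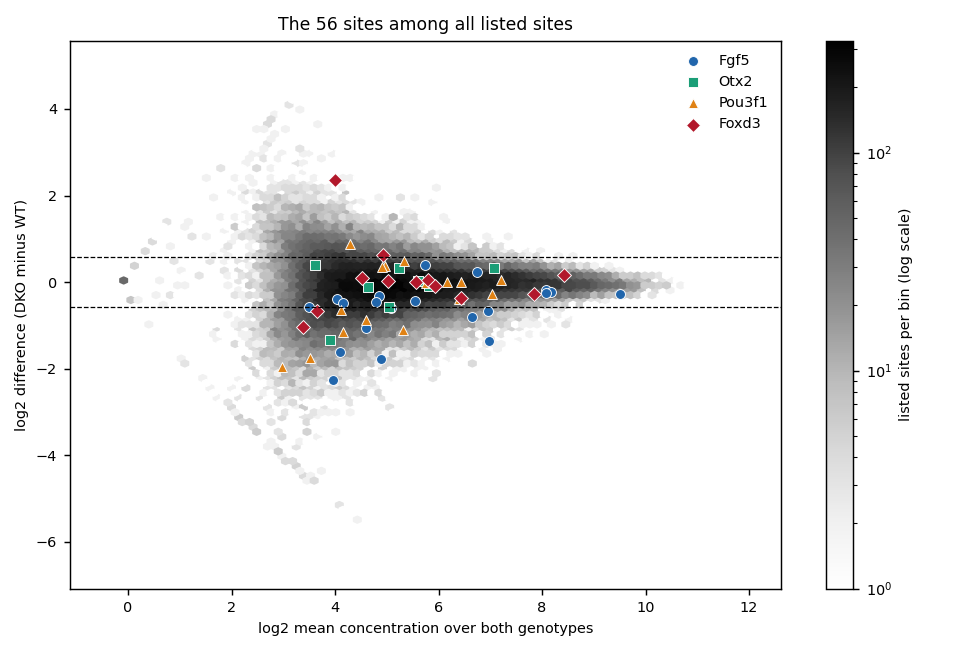
Log2 difference (DKO minus WT) against the log2 mean concentration over both genotypes for all 75880 listed sites (grey bins, log colour scale) and for the 56 sites near Fgf5, Otx2, Pou3f1 and Foxd3 (coloured symbols), with dashed lines at 1.5-fold. The cloud is wide at low concentrations, and the Fgf5 symbols below the lower line reach into concentrations between 6 and 7, where 8.01% of all listed sites were lower.

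Fgf5 lies on chromosome 5 from 98254184 to 98277033 of mm10, on the plus strand, with 1 curated TSS. The promoter site, from 98253870 to 98254860 and centred 181 bp downstream of the TSS, measured 6.63 in WT and 6.86 in DKO on the log2 concentration scale, a difference of 0.23. Within the gene, the intronic site 1851 bp downstream of the TSS (98255590 to 98256480) was stronger, with 8.29 in WT and 8.07 in DKO. Both stayed within 1.5-fold, so accessibility at the start of Fgf5 was close to that in WT. The nearest lower site was intergenic, 7974 bp upstream (98246100 to 98246320), at 5.02 in WT and 3.97 in DKO.

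Downstream of Fgf5, all 5 sites listed between the gene and the Cfap299 promoter were lower in DKO. These intergenic sites span 28750 bp, from 98283690 to 98312440, at 29871 to 58006 bp from the Fgf5 TSS. For 4 of the 5 the nearest TSS is that of Cfap299, at 17114 to 35824 bp, and among the 4 sites whose nearest TSS is that of Fgf5, 2 were lower. The first of them, 29871 bp from the TSS, was also the strongest, with a concentration of 7.5 in WT and 6.15 in DKO, or 181 against 71 normalized reads, a 2.55-fold loss. Only 3.11% of all listed sites had a difference as low as its -1.35. At 39296 bp (98293090 to 98293870) the concentration was 7.25 in WT and 6.58 in DKO, a difference of -0.67, and at 48526 bp (98302450 to 98302970) it was 5.36 and 4.76, a difference of -0.60 that lay just past the fold. The 2 outermost sites are close neighbours. At 56156 bp (98309720 to 98310960) the concentration was 6.99 in WT and 6.18 in DKO, and at 58006 bp (98311940 to 98312440) it was 5.52 in WT and 3.74 in DKO, a 3.43-fold loss. Summed over the 5 sites, which cover 3770 bp, normalized reads were 547.3 in WT and 279.6 in DKO (log2 ratio -0.97). The remaining 15 sites at Fgf5 gave a log2 ratio of -0.25.

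Unbroken runs of at least 5 neighbouring lower sites were uncommon in the table. There were 47 among 9316 runs of any length, they held 0.619% of all listed sites, 13 of them fitted within 100 kb, and 8 were on chromosome 6. The run at Fgf5 was singled out after its values were seen, and its site at 48526 bp is within 0.02 of the fold, so that 4 of the 5 sites were called when differences were centred on the median of all sites or 1 read was added to each mean. At a fold of 2, 2 of the 5 were called and the run was broken.

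The sequence of 3 of these sites is shown. The site at 58006 bp had the largest fold loss of the run and was taken by the rule for printed sequences, and the others were its 2 strongest sites in WT, chosen after their values were seen. Each is 300 bp around the site's midpoint on the plus strand of GRCm38.p6, and capitals mark exact matches on either strand to any of the 7 strings listed further on, here CAGAC, the Smad box (GTCTG on the other strand), and GGATTA, bound by Otx2 (TAATCC on the other strand).
Fgf5 +58006 bp, chr5:98312041-98312340: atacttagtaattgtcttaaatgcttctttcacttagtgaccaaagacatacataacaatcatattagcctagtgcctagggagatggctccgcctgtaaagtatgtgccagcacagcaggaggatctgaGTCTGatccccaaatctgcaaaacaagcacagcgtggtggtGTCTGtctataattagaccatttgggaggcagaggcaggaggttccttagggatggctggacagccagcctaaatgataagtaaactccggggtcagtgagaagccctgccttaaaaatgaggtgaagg
Fgf5 +29871 bp, chr5:98283906-98284205: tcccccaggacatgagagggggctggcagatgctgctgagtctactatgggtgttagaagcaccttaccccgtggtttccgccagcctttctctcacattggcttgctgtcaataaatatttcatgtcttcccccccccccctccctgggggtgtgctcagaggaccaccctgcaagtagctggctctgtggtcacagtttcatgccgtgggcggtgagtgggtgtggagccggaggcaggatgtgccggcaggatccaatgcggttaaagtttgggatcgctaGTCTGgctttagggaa
Fgf5 +39296 bp, chr5:98293331-98293630: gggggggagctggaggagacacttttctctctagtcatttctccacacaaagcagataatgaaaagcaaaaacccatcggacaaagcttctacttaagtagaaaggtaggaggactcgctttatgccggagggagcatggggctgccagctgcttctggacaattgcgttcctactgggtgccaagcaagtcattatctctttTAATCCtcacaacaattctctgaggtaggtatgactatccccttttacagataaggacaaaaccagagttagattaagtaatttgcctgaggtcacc
The printed windows at 58006 and 29871 bp held 2 and 1 Smad boxes, and that at 39296 bp held 1 Otx2 string and no Smad box. The listed sites are longer than these windows. Over its whole length, the site at 58006 bp held 3 Smad boxes. Those at 29871 and 39296 bp each held 2 Smad boxes and 2 Otx2 strings, and the latter also held 1 forkhead string. The window at 58006 bp had a GC content of 46.3% and is 23.3% repeat-masked in the reference.

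Upstream of Fgf5, 8 sites lay more than 50 kb away around Prdm8, a gene of the PR-domain family of chromatin regulators, and the transcript A730035I17Rik. The strongest of the 56 sites is here, intergenic and 85769 bp from the Fgf5 TSS (98167070 to 98169760), with 9.63 in WT and 9.35 in DKO. Of these 8 sites, 2 were lower, both intergenic and weak in WT. One at 88104 bp upstream (98165930 to 98166230) had 4.68 in WT and 2.42 in DKO, the largest loss among the 56 sites, and the other at 59014 bp (98195000 to 98195340) had 4.69 and 3.08. The sites at the TSSs of Prdm8 and A730035I17Rik had differences of -0.45 and -0.19. All 8 sites had a negative difference. At the far end of the window, 4 sites at and within Cfap299 ranged from -0.57 to 0.39, and none passed the fold.

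Sites beyond the Fgf5 window were lower too. From 100 kb to 1 Mb from the Fgf5 TSS, 13 of the 47 sites at or above a concentration of 4 (27.7%) were lower and 0 were higher, with a median difference of -0.27, against 14.2% lower, 4.81% higher and a median of -0.1 on chromosome 5 as a whole. Within 100 kb the values were 7 of 18 sites lower (38.9%), 0 higher and a median of -0.44. The part of this wider shift in the differences at Fgf5 was not tested.

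**Figure D3:**
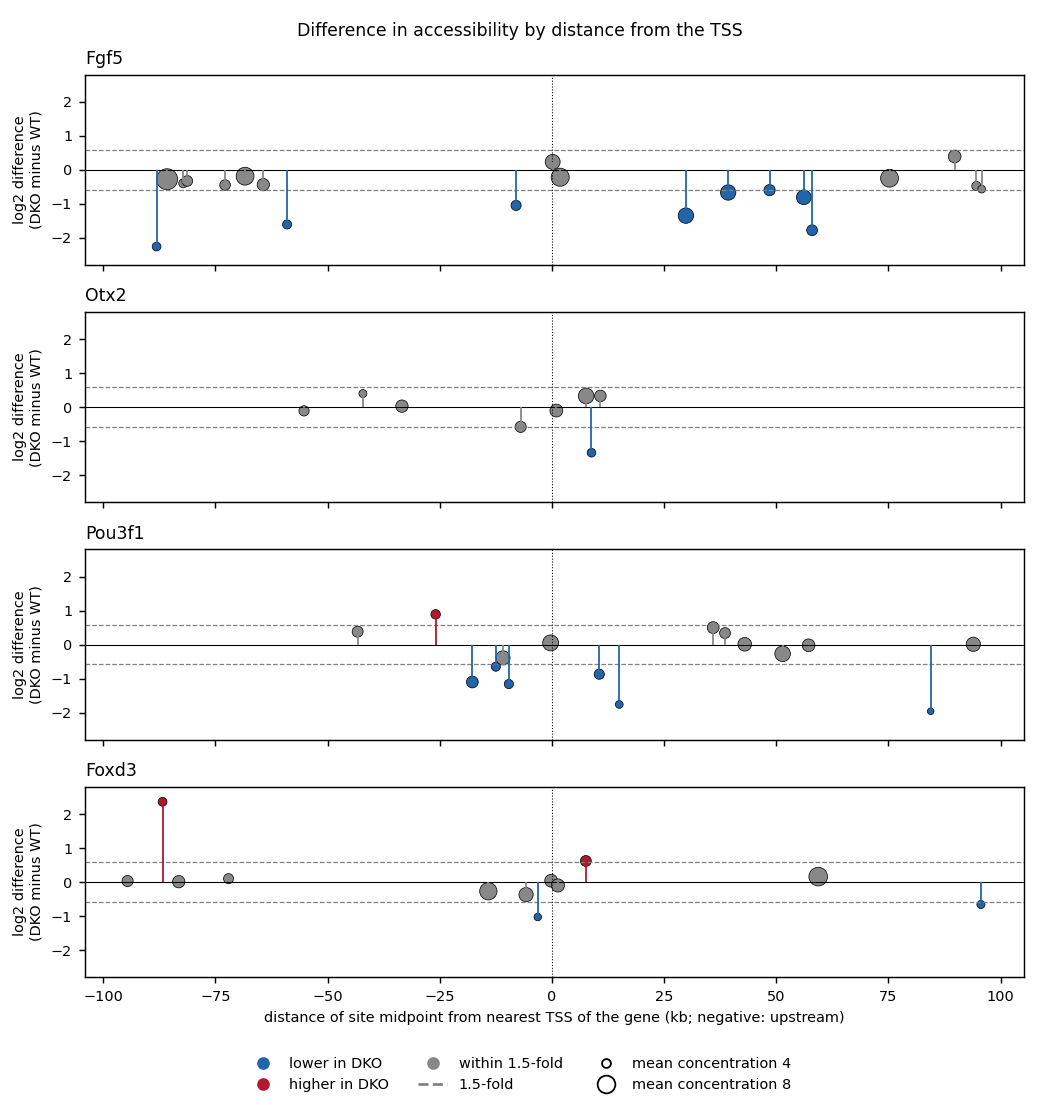
Log2 difference (DKO minus WT) of each site against its distance in kb from the nearest TSS of Fgf5, Otx2, Pou3f1 or Foxd3, with point area growing with mean concentration and dashed lines at 1.5-fold. Blue points are lower in DKO, red higher and grey within 1.5-fold, and the promoter points of Fgf5, Pou3f1 and Foxd3 are grey, Otx2 has no point within 1 kb of a TSS, and the 5 sites at 29871 to 58006 bp from the Fgf5 TSS are blue.

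Pou3f1 lies on chromosome 4 from 124657646 to 124660655, on the plus strand, with 1 curated TSS. Its promoter site, from 124656860 to 124657890 and centred 271 bp upstream, was the strongest of its 16 sites, at 7.18 in WT and 7.23 in DKO. The TSS of Gm2164, a transcript that starts beside Pou3f1 and runs the other way, is nearer to the centre of that site, at 112 bp, so the 2 promoters share it. As at Fgf5, the promoter was within 1.5-fold and the lower sites lay at a distance. At Pou3f1 the lower sites were 6 of 16, while 1 was higher and 7 had a positive difference. Among its sites at or above a concentration of 4 the median difference was 0.0, against -0.44 at Fgf5.

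Sites on either side of Pou3f1, from 9581 to 17726 bp upstream and from 10569 to 15024 bp downstream, held 5 of its 6 lower sites. These ranges were drawn after the values were seen and end at lower sites, so the counts within them carry no weight. In the upstream range, 3 of 4 sites, all in introns of Gm2164, were lower. Over all 6 sites in introns of Gm2164, 3 were lower and 1 was higher. The clearest was at 17726 bp (124639670 to 124640170), with 5.77 in WT and 4.67 in DKO, a 2.14-fold loss. The others were at 12491 bp (124645030 to 124645280), with 4.40 and 3.75, and at 9581 bp (124647930 to 124648200), with 4.63 and 3.47. Between them, the stronger site at 10891 bp (124646490 to 124647020) had 6.58 in WT and 6.19 in DKO, a difference of -0.39 that did not pass. Downstream, the site at 10569 bp (124668080 to 124668350), which spans the TSS of the transcript Gm38545, had 4.97 in WT and 4.10 in DKO. An intergenic site at 15024 bp (124672530 to 124672810) had 4.13 and 2.37. With the exception of the site at 17726 bp, all of these lower sites were below the median WT concentration of all listed sites, 5.06.

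The single higher site at Pou3f1, 25901 bp upstream in an intron of Gm2164 (124631610 to 124631880), had 3.78 in WT and 4.67 in DKO, a difference of 0.89. Farther downstream, 7 sites lay from 35959 to 93939 bp among the genes Utp11, Fhl3, Sf3a3, Inpp5b and Gm12915, and 6 of them were within 1.5-fold, from -0.27 to 0.50. The remaining one, at the Inpp5b promoter 84434 bp from the Pou3f1 TSS (124741920 to 124742240), had 3.65 in WT and 1.69 in DKO, or 12.6 against 3.2 normalized reads. From 100 kb to 1 Mb from Pou3f1, 1 of the 40 sites at or above a concentration of 4 was lower (2.5%) and 6 were higher (15%), with a median difference of 0.07. On chromosome 4 as a whole, 11.1% of sites of that level were lower and 5.17% higher, with a median of -0.05. This contrast was not tested.

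The sequence of 2 upstream sites is shown, the first as the site with the largest called difference among those that reached a concentration of 5 in either genotype, and the second, chosen after its values were seen, because it was the only one of the 56 windows with the palindromic Smad element GTCTAGAC.
Pou3f1 -17726 bp, chr4:124639771-124640070: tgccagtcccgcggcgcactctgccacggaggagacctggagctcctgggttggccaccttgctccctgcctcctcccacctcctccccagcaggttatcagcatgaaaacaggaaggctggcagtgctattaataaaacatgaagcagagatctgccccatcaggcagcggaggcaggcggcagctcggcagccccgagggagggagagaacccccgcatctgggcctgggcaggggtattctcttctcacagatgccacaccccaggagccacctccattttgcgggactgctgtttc
Pou3f1 -9581 bp, chr4:124647916-124648215: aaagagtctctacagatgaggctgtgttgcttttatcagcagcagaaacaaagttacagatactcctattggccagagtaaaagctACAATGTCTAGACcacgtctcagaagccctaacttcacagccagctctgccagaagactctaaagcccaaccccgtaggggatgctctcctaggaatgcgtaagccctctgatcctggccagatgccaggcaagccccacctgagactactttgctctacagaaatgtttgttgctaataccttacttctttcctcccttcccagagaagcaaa
In the first window, 62% GC, none of the 7 strings was present, which says only that these letters are not in it. In the second, the capitals cover CATTGT, a Sox string, on the minus strand at bases 87 to 92 and GTCTAGAC at bases 92 to 99, counted from the 5′ end of the printed window, so that the 2 matches overlap by their shared base 92. GTCTAGAC occurred in 0.224% of the 300 bp windows of all listed sites.

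Otx2 lies on chromosome 14 from 48657677 to 48667644, on the minus strand, and has 4 curated TSSs. It had 8 sites and, unlike the other 3 genes, no site centred within 1 kb of any of its TSSs. The nearest, from 48666190 to 48666820, is in an intron of Otx2, 1003 bp downstream of a TSS, with 5.86 in WT and 5.76 in DKO. The strongest, an intergenic site past the end of the gene (48654500 to 48655680, 7644 bp from the nearest TSS), had 6.90 in WT and 7.23 in DKO, and its neighbour at 10809 bp (48651540 to 48652310) had 5.06 and 5.39. Between the 2 lay the only lower site of Otx2, at 8829 bp (48653690 to 48654120), with 4.43 in WT and 3.09 in DKO and a mean concentration of 3.91. On the other side, 4 sites lay in introns of Otx2os1, a non-coding transcript that starts upstream of Otx2 on the opposite strand. The site 6956 bp upstream (48674350 to 48674850) had 5.30 in WT and 4.72 in DKO, and its difference of -0.58 was the closest to the fold among those not called. The means are given to 0.01, and this site would pass if its true difference were lower by that much. The other 3 had differences of -0.11, 0.03 and 0.40.

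The intronic site nearest to an Otx2 TSS is shown, since no called site of Otx2 reached a concentration of 5. Its 300 bp window had a GC content of 59.7% and 20 CpG dinucleotides and held none of the 7 strings. Over its whole length the site held 2 Smad boxes.
Otx2 +1003 bp, chr14:48666356-48666655: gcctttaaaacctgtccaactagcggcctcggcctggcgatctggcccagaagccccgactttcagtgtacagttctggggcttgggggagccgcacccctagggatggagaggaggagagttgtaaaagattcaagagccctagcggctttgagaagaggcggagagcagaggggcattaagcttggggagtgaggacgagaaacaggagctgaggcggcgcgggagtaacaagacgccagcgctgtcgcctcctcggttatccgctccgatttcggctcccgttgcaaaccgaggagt

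Foxd3 lies on chromosome 4 from 99656299 to 99658671, on the plus strand, with 1 curated TSS. Its promoter site (99655880 to 99656410, centred 154 bp upstream) had 5.77 in WT and 5.81 in DKO, and the site in its coding exon (99657160 to 99658130) had 5.99 and 5.89. The strongest site of the window, 8.35 in WT and 8.51 in DKO, is the promoter of Alg6, a glucosyltransferase of N-glycan assembly, 59366 bp downstream (99715140 to 99716190). Upstream of Foxd3, the intergenic sites at 14154 bp (99641780 to 99642510; 7.97 and 7.70) and 5749 bp (99650070 to 99651030; 6.61 and 6.24) were the strongest intergenic ones of the window, and both were within 1.5-fold.

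Foxd3 was the only gene of the 4 with as many higher as lower sites. The higher sites were intergenic. At 86769 bp upstream (99569400 to 99569660) the concentration was 2.39 in WT and 4.75 in DKO, or 5.2 against 26.9 normalized reads, a gain that only 0.223% of all listed sites matched. At 7581 bp downstream (99663680 to 99664080) it was 4.58 and 5.20, a difference of 0.62, just past the fold, and the largest positive difference that did not pass among the 56 sites was 0.50. The lower sites were weak in both genotypes, with 3.81 in WT and 2.78 in DKO 3139 bp upstream (99653050 to 99653270), and 3.94 and 3.28 in an intron of Alg6 at 95631 bp (99751780 to 99752080). The site 7581 bp downstream is shown as the called site of Foxd3 that reached a concentration of 5, with its 1 Smad box in capitals.
Foxd3 +7581 bp, chr4:99663731-99664030: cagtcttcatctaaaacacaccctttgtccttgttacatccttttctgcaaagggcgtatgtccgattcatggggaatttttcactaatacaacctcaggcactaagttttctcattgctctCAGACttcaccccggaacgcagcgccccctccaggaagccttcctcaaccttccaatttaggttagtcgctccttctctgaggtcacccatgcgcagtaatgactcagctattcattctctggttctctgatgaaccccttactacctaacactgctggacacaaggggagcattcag

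Adding the linear normalized reads of all sites of a gene lets strong sites weigh more than weak ones. The Fgf5 window summed to 2630.6 reads in WT and 2030 in DKO over 14590 bp of sites, a log2 ratio of -0.37. For Pou3f1 the sums were 859.7 and 772.7 over 7390 bp, a log2 ratio of -0.15. At Foxd3 they were 953.1 and 948.1 over 7000 bp, and at Otx2 356.2 and 368 over 4670 bp, with log2 ratios of -0.01 and 0.05. Over all listed sites the log2 ratio of the sums was -0.07. In DKO the order of the 4 sums was as in WT, with Fgf5 highest and Otx2 lowest. The site near Prdm8 alone gave 792.4 of the WT reads at Fgf5. Without the strongest site of each gene the log2 ratio was -0.42 for Fgf5, -0.20 for Pou3f1, -0.10 for Foxd3 and -0.12 for Otx2, so that the sign at Otx2 rests on its strongest site.

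The same sum was taken for each of the 19952 genes with a curated TSS and at least 5 sites within 100 kb. Their median log2 ratio was -0.01, with quartiles of -0.13 and 0.1, and neighbouring genes share sites. A ratio as low as that of Fgf5 was found for 2.71% of these genes, and 0.266% had as many lower sites as its 8, although 4.2% had as many sites in all. For Pou3f1, 20.3% of genes had a ratio as low and 1.11% had as many lower sites as its 6, although 11.9% had as many sites in all. Otx2 and Foxd3 lay near the middle, with 63.1% and 49.8% of genes at a ratio as low.

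**Figure D4:**
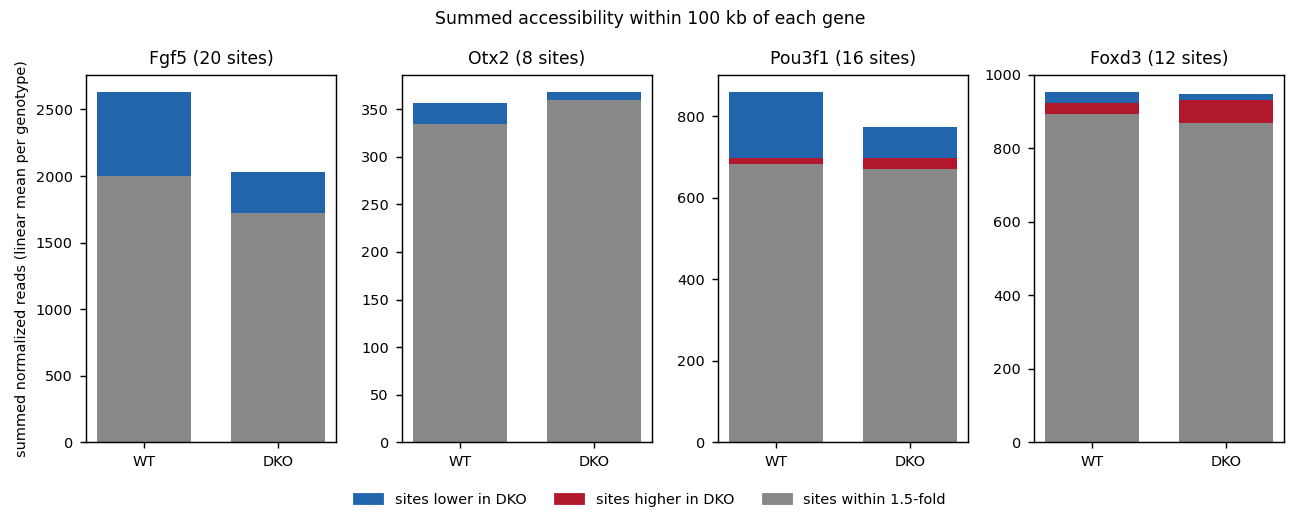
Sum of normalized reads (linear scale, authors' mean per genotype) over all sites within 100 kb of each gene in WT and Smad2/3 DKO EpiLCs, with a separate vertical scale per gene starting at 0. Bars are split into sites lower in DKO (blue), higher (red) and within 1.5-fold (grey), and the Fgf5 bar goes from 2630.6 in WT to 2030 in DKO while the bars of Otx2 and Foxd3 differ little.

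By annotation, the 17 lower sites included 11 of the 26 intergenic sites and 4 of the 16 intronic sites. Of the 13 sites centred within 1 kb of any TSS, 2 were lower, those of Gm38545 and Inpp5b, and neither belongs to the 4 genes. Of the other 43 sites, 15 (34.9%) were lower and 3 (6.98%) higher. In the whole table, 4.17% of sites within 1 kb of a TSS and 18.9% of those farther away were lower, and 3.69% and 9.7% were higher. The median GC content of the 300 bp windows was 54% at the 17 lower sites and 56.8% at the 36 sites within 1.5-fold, with a median of 5 and 11.5 CpG dinucleotides. Over all listed sites the medians were 51% and 5. The median repeat-masked share was 11.3% at the 17 lower sites and 9.7% over all listed sites. It was 81.3% at the lower Fgf5 site 59014 bp upstream. At the higher sites 25901 bp upstream of Pou3f1 and 86769 bp upstream of Foxd3 it was 54% and 43.7%.

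Exact matches to 7 strings, on both strands, were counted in the 300 bp windows. The POU octamer ATGCAAAT, which Oct6 and Oct4 recognize, was in 0 of the 56 windows and in 3.16% of all windows. The FoxH1 string TGTGGATT, of the forkhead partner of Smad2/3, was also in 0, against 1.07%. The Otx2 string GGATTA was in 5 windows (8.93%), against 8.71% of all, and 3 of the 5 were among the 17 lower sites, where 11.2% of all lower windows in the table held it. These 3 were the sites at 39296 bp downstream of the Fgf5 TSS and at 12491 bp upstream and 10569 bp downstream of the Pou3f1 TSS. TGTTTAC, the forkhead string used for Foxd3, was in 3 windows (5.36%), against 4.51%, and CATTGT, the Sox string, in 12 (21.4%), against 13.2%. The Smad box CAGAC is short and was in 28 windows (50%), against 52.5% of all windows, and in 9 of the 17 lower ones, against 54.2% of all lower windows in the table. Over the whole length of the listed sites, the octamer and the FoxH1 string were likewise in 0 of the 56. These shares describe letters and not binding.

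For comparison, sites within 100 kb were counted in the same way for 14 other genes of the primed epiblast (Dnmt3a, Dnmt3b, Fgf15, Lef1, Sall2, Sox3, Zic2, Pim2, Tead2, Grhl2, Cdh2, Etv4, Tdgf1 and Nodal). They had 176 sites, of which 19 (10.8%) were lower and 14 (7.95%) higher, with a median difference of -0.04. At least 1 lower site was found at 10 of these genes, and at 62.9% of the 19952 genes with at least 5 sites. Their summed log2 ratios ran from -0.19 at Sox3, a transcription factor of the Sox family, to 0.28 at Grhl2, a grainyhead factor with 5 higher sites of 10. The ratio of Fgf5, -0.37, lay below that of each of the 14, whereas those of Sox3 and Fgf15 (-0.17) were lower than the -0.15 of Pou3f1. For 12 naive pluripotency genes (Klf2, Klf4, Klf5, Esrrb, Nanog, Zfp42, Tbx3, Nr0b1, Prdm14, Tfcp2l1, Tcl1 and Dppa3), 5 of 81 sites (6.17%) were lower and 15 (18.5%) higher, with a median of 0.08. Among these naive genes the summed log2 ratios ran from -0.42 at Tcl1, which had 2 sites and lay below Fgf5, to 0.37 at Klf2. The differences between the lists were not tested.

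Promoter sites of other lineages were listed as well. Each of Gata6, Sox17 and Foxa2, markers of endoderm, and Cdx2, Eomes and Elf5, markers of trophoblast, had 1 site within 1 kb of a TSS, with WT concentrations from 4.55 at Elf5 to 9.13 at Foxa2. The paper also counts Foxa2 among genes of the primed state and Eomes among mesodermal genes. Gata6 had 6.91, Cdx2 7.24 and Sox17 7.61. Of the primed epiblast markers, the Fgf5 and Pou3f1 promoters had 6.63 and 7.18, that of Dnmt3b had 5.66, and Otx2 had no such site, while all sites within 1 kb of a TSS had a median of 6.7 and quartiles of 5.51 and 7.75. Promoter accessibility therefore does not separate primed epiblast from other cells here, and the label of the cells could not be checked from it.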

How the data were processed

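ATAC-seq sites from WT and Smad2/3 DKO day 2 EpiLCs were analysed. Read pairs were mapped by the authors on mm10 (bowtie2, no mixed or discordant pairs). Reads that were not unique, fell in blacklisted regions or were PCR duplicates (Samtools) were dropped. DANPOS2 then called sites, with all triplicates and the Tn5 control as input, and DiffBind gave the deposited log2 concentrations (log2 mean normalized reads per genotype). The normalization, the DiffBind version and any shift of read ends to the Tn5 insertion are not given in the sources used here. The deposited fold changes, p-values and FDRs are the authors' own comparison and were not used.

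Differences (DKO minus WT) were computed from means given to 0.01, with no test, since there is 1 value per genotype and the depth is unknown. Called sites differ by over 1.5-fold, without the study's FDR criterion. All 75880 sites lie within the chromosomes of GRCm38.p6, the assembly of mm10, whose 31647 curated RefSeq TSSs (NM and NR transcripts) were used. Site coordinates are as deposited and were read as counting from 1, which may be off by 1 bp. Named were, at each gene, the site nearest to a TSS, the strongest site in WT and every called site. Neighbouring sites were added where a sentence compares them. Members and lists were chosen with earlier results of these data known. An item of the list of other primed genes is not reported here and was left out of its counts. The code was checked on simulated sites. Python 3.11.15, numpy 2.4.6, pandas 2.3.3, pysam 0.24.0 and matplotlib 3.10.9 were used.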

Additional observations from a re-analysis of the deposited data

How the results depend on the processing

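The table gives 1 mean per genotype, so no differentiation could be left out. No paired analysis was possible because the columns carry no differentiation numbers. The counts of 17 lower and 3 higher sites were the most sensitive. A smaller log2 threshold of 0.322 gave 26 lower and 10 higher sites, and a fold of 2 gave 11 and 1. The share of all listed sites is not given for these folds, nor after centring or adding 1 read. Whether the excess over all listed sites held under those settings was not tested. Keeping only sites with a mean concentration of at least 4 gave 11 lower sites of 48, against 12.4% of all listed sites of that level. A window of 50 kb gave 11 of 31, against 16.0% of all listed sites. Keeping only sites whose nearest TSS belongs to the gene gave 4 of 18, against the same 16.0%, since other TSSs lie nearer to most sites. No site is nearest to the Pou3f1 TSS, whose sum under that setting could not be computed. Centring on the median of all sites gave 14 lower and 3 higher sites, and adding 1 read gave 16 and 3. A 50 kb window moved the summed log2 ratio of Foxd3 to -0.19. Without the strongest site, an alternative chosen after seeing the data, that of Otx2 was -0.12. A move of over 0.1 in log2 was counted as a change, and the other summed ratios stayed within it under the alternatives run, from -0.29 to -0.46 for Fgf5 and -0.07 to -0.20 for Pou3f1. Among the 56 single sites, centring moved 0 and adding 1 read moved 5 by more than that.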
